A study of Rattus norvegicus with 6 samples.

Results

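The genes of the rat major histocompatibility complex (MHC, named RT1 in the rat) and of the antigen presentation machinery were compared in the hearts of high-fat diet-fed OP rats and of OR rats on standard food. Members were taken by gene name: every row whose name begins with RT1- or Tapbp, together with Cd74, B2m, Tap1, Tap2, Ciita and Nlrc5. The rule found 39 rows of 32883, each with its own gene ID. They comprised 21 class I heavy chain rows, 10 class II chain rows, the class I light chain, 4 peptide loading genes, the invariant chain and 2 transcriptional regulators.

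RNA was sequenced from myocardial tissue of 3 OP rats given the high-fat food and of 3 OR rats given standard food, with 1 library per rat and 12 months of feeding in both groups. OP and OR are obesity-prone and obesity-resistant animals of a Sprague Dawley background. All OP libraries came from the high-fat diet and all OR libraries from standard food, so an effect of line and one of diet cannot be told apart. The OP rats on high-fat food serve as a model of diastolic heart failure in metabolic syndrome.

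MHC class I molecules pair a heavy chain with beta-2 microglobulin (B2m) and show peptides cut by the proteasome to CD8 T cells, whereas their absence or presence is read by natural killer cells. Class II molecules are made of an alpha and a beta chain, are guided by the invariant chain (Cd74) and are found mainly on dendritic cells, macrophages and B cells. Nlrc5 drives transcription of class I genes and Ciita that of class II genes, both without binding DNA themselves, and interferon gamma raises both. In the rat, RT1-A rows encode classical class I chains, the C/E, N, S, T24 and M rows mostly non-classical or class I-like chains, and the B and D rows class II chains. The RT1 region differs in sequence and in gene number between rat strains, and the reads were mapped by the authors to the Rnor 6.0 genome, which comes from a Brown Norway rat. Inherited differences between the OP and OR lines in how reads fit this reference, or between which loci they fall, cannot be told apart from differences in expression.

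Levels are given as counts per 1000000 reads (CPM), which is the deposited value divided by 20. The steps between deposited values gave 11053922 to 12831598 reads assigned to genes in the OP libraries and 10838184 to 11873568 in the OR libraries, so 1 read stood for 0.0779 to 0.0923 CPM. Of the 39 members, 30 had at least 1 CPM in at least 3 libraries and were tested among 13445 genes, and 2 (RT1-M4 and RT1-M5) were at 0 in all 6 libraries. Fold changes are log2 values of OP over OR after TMM scaling with 0.2 CPM added, tested with limma over all genes with Benjamini-Hochberg adjustment, and an adjusted p under 0.05 made a call. OP replicate 2 stood apart from the other libraries. The chi-square of its reads per gene against the other OP libraries was 23.9 and 25.9, where counting noise alone gives 1, whereas the other pairs within a group lay between 6.02 and 6.87. With 1 library per rat, the spread between libraries holds differences between rats and those of sampling and library preparation, which cannot be told apart.

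Of the 30 tested members, 2 were called and both were lower in OP rats. Among all tested genes 3.40% were called, 1.87% lower and 1.53% higher in OP rats. At an unadjusted p under 0.05 from limma, 12 members were lower and 0 higher, where 11.6% of all tested genes were lower and 10.8% higher. In 7 members the 3 OP values lay below all 3 OR values and in 0 members above them, beside 17.7% and 10.4% of all tested genes. These are CPM before TMM scaling. After it the members numbered 7 and 0 again, and the shares of all tested genes were 14.1% below and 15.5% above. The log2 fold change was negative in 24 members, or 80.0%, against 49.0% of all tested genes, and its median was -0.46 over the members and 0.01 over all genes. The 30 members are not independent of each other, since class I rows share sequence and regulators. The libraries come from bulk tissue with many cell types, in which fewer cells of a type and less RNA per cell cannot be told apart. The plot of fold changes with their intervals shows how these counts divide between the classes.

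**Figure D1:**
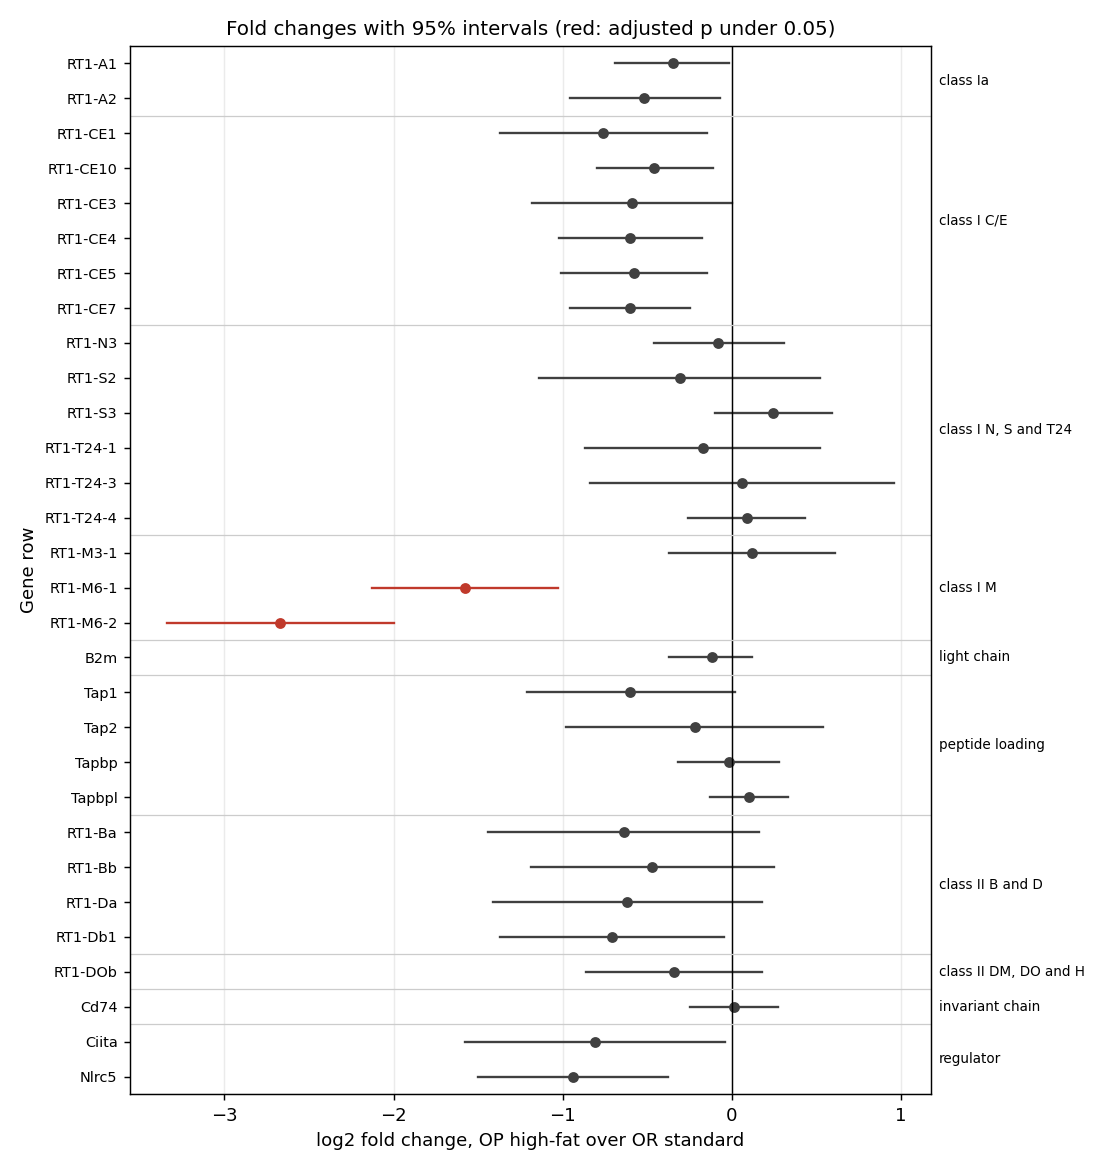
Log2 fold change of OP high-fat over OR standard hearts (x axis) with its 95% interval from limma for the 30 tested rows (y axis), grouped by class. RT1-M6-1 at -1.58 and RT1-M6-2 at -2.67 (red) were called, the class Ia and C/E rows all lie left of 0, and the N, S and T24 rows lie on both sides of it.

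The 2 called members were RT1-M6-1 and RT1-M6-2, adjacent class I-like genes of the M group. RT1-M6-2 had 1.25, 0.5 and 1.2 CPM in OP rats, against 7.3, 8.05 and 6.3 CPM in OR rats. The groups did not overlap, and the highest OP library was far below the lowest OR library. The log2 fold change was -2.67 (SE 0.29, 95% interval -3.34 to -2.0, adjusted p = 0.00532 from limma), and it remained called with each library left out. RT1-M6-1 had 1.4, 1.3 and 1.5 CPM in OP rats, against 3.8, 6.7 and 4.15 CPM in OR rats. These groups did not overlap either, with the OP libraries close together and OR replicate 2 above the other OR libraries. The log2 fold change was -1.58 (SE 0.24, 95% interval -2.13 to -1.03, adjusted p = 0.0168 from limma). Leaving out OP replicate 1 ended this call (adjusted p = 0.0522 from limma), as did leaving out any 1 OR library (0.0626 to 0.0749), while the fold change stayed between -1.73 and -1.34.

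Both rows rest on few reads. RT1-M6-2 held 14, 5 and 15 reads in OP rats, against 79, 95 and 72 reads in OR rats, and RT1-M6-1 held 16, 14 and 19 reads in OP rats, against 41, 79 and 47 reads in OR rats. The promoters of these genes are shown because the rows are near copies and are the only members called. In the RefSeq GRCr8 annotation their windows from 250 bases before to 50 after the start of the gene shared 290 of 298 aligned bases, or 97.3%. The stretches from 120 bases before the start onwards, on the plus strand at chr20:1571351-1571520 for RT1-M6-1 and chr20:1588413-1588582 for RT1-M6-2, are given here with capitals where the aligned letters differ or are missing in the other.
RT1-M6-1: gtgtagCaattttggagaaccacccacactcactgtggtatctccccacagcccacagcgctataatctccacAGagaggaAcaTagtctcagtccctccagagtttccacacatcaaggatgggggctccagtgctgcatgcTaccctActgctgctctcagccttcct
RT1-M6-2: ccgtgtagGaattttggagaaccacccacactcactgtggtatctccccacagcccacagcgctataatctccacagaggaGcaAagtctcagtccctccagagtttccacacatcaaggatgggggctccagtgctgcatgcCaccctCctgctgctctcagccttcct
A pair this alike can exchange reads wherever the transcripts match as well, and the sources used here do not give how reads with several matches were counted. The division of reads between these rows is therefore uncertain. Their sum does not depend on that division, but it does depend on whether reads with several matches were counted at all. It was 2.65, 1.8 and 2.7 CPM in OP rats, against 11.1, 14.8 and 10.4 CPM in OR rats, and averaged 2.38 ± 0.506 CPM in OP rats, against 12.1 ± 2.32 CPM in OR rats (SD, n = 3 each). The ratio of RT1-M6-2 to RT1-M6-1 was 0.893, 0.385 and 0.8 in OP rats and 1.92, 1.2 and 1.52 in OR rats, so the groups did not overlap in this ratio. A sequence difference at these loci between the lines was not tested.

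The genes beside this pair in the GRCr8 order did not pass the test. Gabbr1, a subunit of the GABA type B receptor, had a log2 fold change of -0.32 (adjusted p = 0.143 from limma), and Znrd1as1, an antisense transcript next to RT1-M6-2, had -0.80 (adjusted p = 0.0634). Gabbr1 had 25.6 to 27.9 CPM in OP rats, against 30.1 to 38.7 CPM in OR rats. Znrd1as1 had 5.9 to 8.95 CPM in OP rats, against 10.8 to 15.6 CPM in OR rats. In both, the OP values lay below all OR values, as in 17.7% of all tested genes. Ppp1r11, Rnf39, Trim15, Trim26 and Ubd lay between -0.21 and 0.14. RT1-M3-1, a non-classical class I gene that presents formylated peptides in the mouse under the name H2-M3, was the other tested M row and had 0.12 (95% interval -0.37 to 0.61). RT1-M2 had at most 1 read in a library.

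The classical class I rows RT1-A1 and RT1-A2 were lower on average in OP rats without passing the test. RT1-A1 had 213, 264 and 296 CPM in OP rats, against 360, 381 and 281 CPM in OR rats. RT1-A2 had 131, 178 and 207 CPM in OP rats, against 276, 290 and 195 CPM in OR rats. In both rows the groups overlapped through OP replicate 3 and OR replicate 3. The log2 fold change was -0.35 (95% interval -0.69 to -0.02, adjusted p = 0.205 from limma) for RT1-A1 and -0.52 (-0.96 to -0.07, adjusted p = 0.168) for RT1-A2.

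All 6 C/E rows had negative fold changes, with a median of -0.59 and a range of -0.76 to -0.46, and none was called. RT1-CE7 had 79.5, 85.6 and 109 CPM in OP rats, against 162, 158 and 113 CPM in OR rats. RT1-CE4 had 79.1, 104 and 122 CPM in OP rats, against 182, 172 and 124 CPM in OR rats. RT1-CE5 had 60.6, 81.5 and 89.4 CPM in OP rats, against 140, 128 and 91.5 CPM in OR rats. In these 3 rows the groups did not overlap, but OP replicate 3 lay just under OR replicate 3. Their log2 fold changes were -0.60, -0.60 and -0.58, with adjusted p values of 0.0758, 0.114 and 0.126 from limma. RT1-CE1 had 13.9 to 26.4 CPM in OP rats, against 24.1 to 42.5 CPM in OR rats (-0.76), and RT1-CE10 had 32.9 to 46.0 CPM in OP rats, against 45.8 to 64.2 CPM in OR rats (-0.46). RT1-CE3 had 3.7 to 5.65 CPM in OP rats, against 5.35 to 9.6 CPM in OR rats (-0.59). These 3 rows overlapped between the groups. Taking the class Ia and C/E rows as 8 rows, limma gave 7 an unadjusted p under 0.05, and RT1-CE3 missed it.

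The order of the libraries was alike in these 8 rows. OP replicate 1 was the lowest and OP replicate 3 the highest OP library in 8 of 8, and OR replicate 3 was the lowest OR library in 8 of 8. Over the 30 tested members OP replicate 3 was the highest OP library in 28 and OR replicate 3 the lowest OR library in 28. These ranks are of CPM before TMM scaling, and the same ranks were not counted over all tested genes. The TMM factors were 0.992, 0.951 and 1.004 in OP replicates 1 to 3 and 1.025, 1.024 and 1.006 in OR replicates 1 to 3. The count of tested members lower at an unadjusted p under 0.05 was 8, 11 and 15 without OP replicates 1, 2 and 3, beside 11.5%, 12.1% and 11.6% of all genes tested in the same fits. It was 5, 7 and 16 without OR replicates 1, 2 and 3, beside 9.21%, 8.10% and 7.49%. The count higher was 0 in these fits, except for 1 (RT1-T24-3) without OP replicate 2, beside 11.2% of all genes. The summed level of the 8 rows was 613, 776 and 901 CPM in OP rats, against 1240, 1230 and 881 CPM in OR rats.

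**Figure D2:**
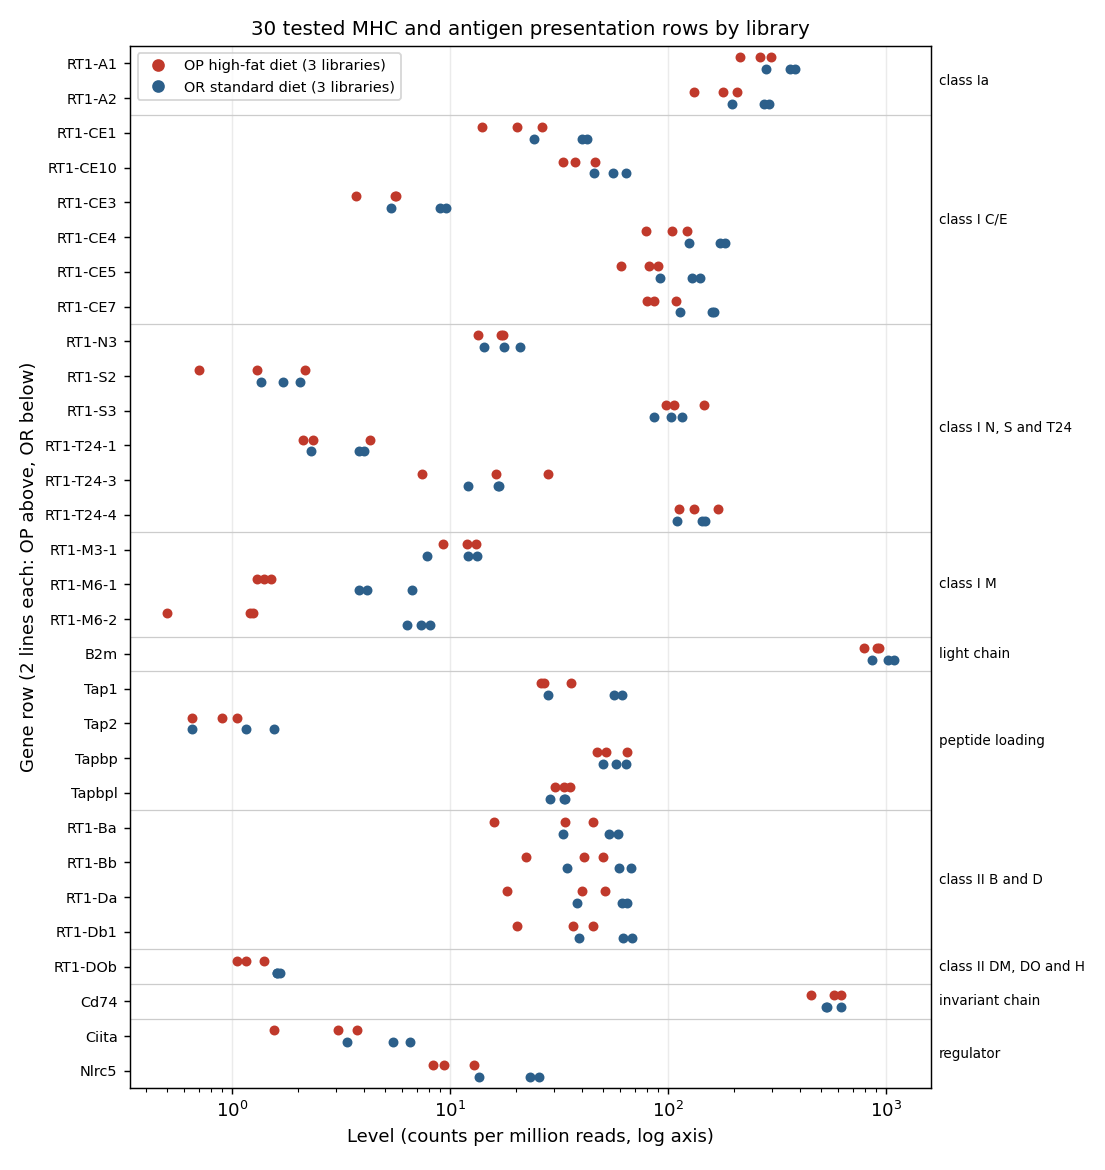
Level of each of the 30 tested rows in each library, in CPM on a log axis (x axis), with 3 OP high-fat libraries above 3 OR standard libraries in each row (y axis). RT1-M6-1 and RT1-M6-2 are the rows with a wide gap between the groups, and in RT1-CE4, RT1-CE5, RT1-CE7, RT1-DOb and Nlrc5 the groups are apart by less.

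The N, S and T24 rows, which are class I genes of other clusters of the region, had fold changes on both sides of 0. Of 7 rows 6 were tested, 3 had a negative fold change, and the median was -0.01 with a range of -0.31 to 0.24. RT1-S3 had 106, 98.0 and 146 CPM in OP rats, against 103, 116 and 85.8 CPM in OR rats, a log2 fold change of 0.24 (95% interval -0.10 to 0.59). RT1-T24-4 had 131, 112 and 169 CPM in OP rats, against 148, 143 and 110 CPM in OR rats, a log2 fold change of 0.09 (-0.26 to 0.43). Both rows overlapped between the groups. RT1-T24-3 had 16.2, 7.45 and 28.1 CPM in OP rats, against 16.8, 16.6 and 12.0 CPM in OR rats, so its OP libraries lay on both sides of all OR libraries. Its fold change was 0.06, but 0.53 without OP replicate 2 and -0.37 without OP replicate 3. RT1-N3, RT1-S2 and RT1-T24-1 had -0.08, -0.31 and -0.17, with overlapping groups. RT1-S2 had 0.05 without OP replicate 1, and RT1-T24-1 had -0.01 without OP replicate 2. Without OP replicate 3 these rows had -0.63 and -0.46. The interval of RT1-S3 does not reach the values of -0.58 to -0.60 of RT1-CE4, RT1-CE5 and RT1-CE7, but the difference between these rows was not tested.

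As a share of all class I heavy chain CPM, the class Ia and C/E rows made up 68.5%, 75.5% and 70.2% in OP rats, against 79.5%, 79.1% and 78.3% in OR rats. The N, S and T24 rows made up 30.2%, 23.2% and 28.6% in OP rats, against 18.9%, 19.2% and 20.1% in OR rats. The groups did not overlap in either share. Both shares are parts of the same total and nearly complete each other, so this is a single observation. How often such shares do not overlap in other gene families was not counted. The total of all 21 class I rows was 896, 1030 and 1280 CPM in OP rats, against 1560, 1560 and 1120 CPM in OR rats, and here the groups overlapped. The total in OP rats was 0.757 of that in OR rats, also over the tested rows alone and without RT1-A1. RT1-A1 kept a share of 24.2% ± 1.35 in OP rats and 24.2% ± 0.946 in OR rats (SD, n = 3 each), and RT1-S3 had 10.9% ± 1.22 in OP rats and 7.21% ± 0.55 in OR rats. These rows are related in sequence, so a shift of reads from one to another would move such shares as well, and its part in the result was not tested.

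None of the partners of class I was called. B2m, the light chain of every class I molecule, lies outside the rat MHC. It had 792, 910 and 925 CPM in OP rats, against 1090, 1020 and 863 CPM in OR rats, with overlapping groups and a log2 fold change of -0.12 (95% interval -0.37 to 0.12). Tap1, one chain of the pump that carries peptides into the endoplasmic reticulum, had 26.9, 26.1 and 35.9 CPM in OP rats, against 61.5, 56.4 and 28.2 CPM in OR rats. OR replicates 1 and 2 stood above all other libraries and OR replicate 3 among the OP libraries. The log2 fold change of Tap1 was -0.60 (95% interval -1.21 to 0.02, adjusted p = 0.235 from limma).

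Tap2, the other chain of the pump, had 0.9, 0.65 and 1.05 CPM in OP rats, against 1.15, 1.55 and 0.65 CPM in OR rats, which is 7 to 13 reads in OP rats and 7 to 18 reads in OR rats. Tapbp (tapasin), which holds class I at the pump, had 47.0, 51.7 and 64.5 CPM in OP rats, against 57.3, 63.9 and 49.9 CPM in OR rats. Tapbpl, a tapasin relative that edits the peptides bound, had 30.2 to 35.4 CPM in OP rats, against 28.8 to 33.4 CPM in OR rats. The groups overlapped in all 3 genes, and the log2 fold changes were -0.22, -0.02 and 0.10 with intervals that held 0. Without OP replicate 2 the value of Tap2 was -0.08, and without OR replicate 3 it was -0.49.

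**Figure D3:**
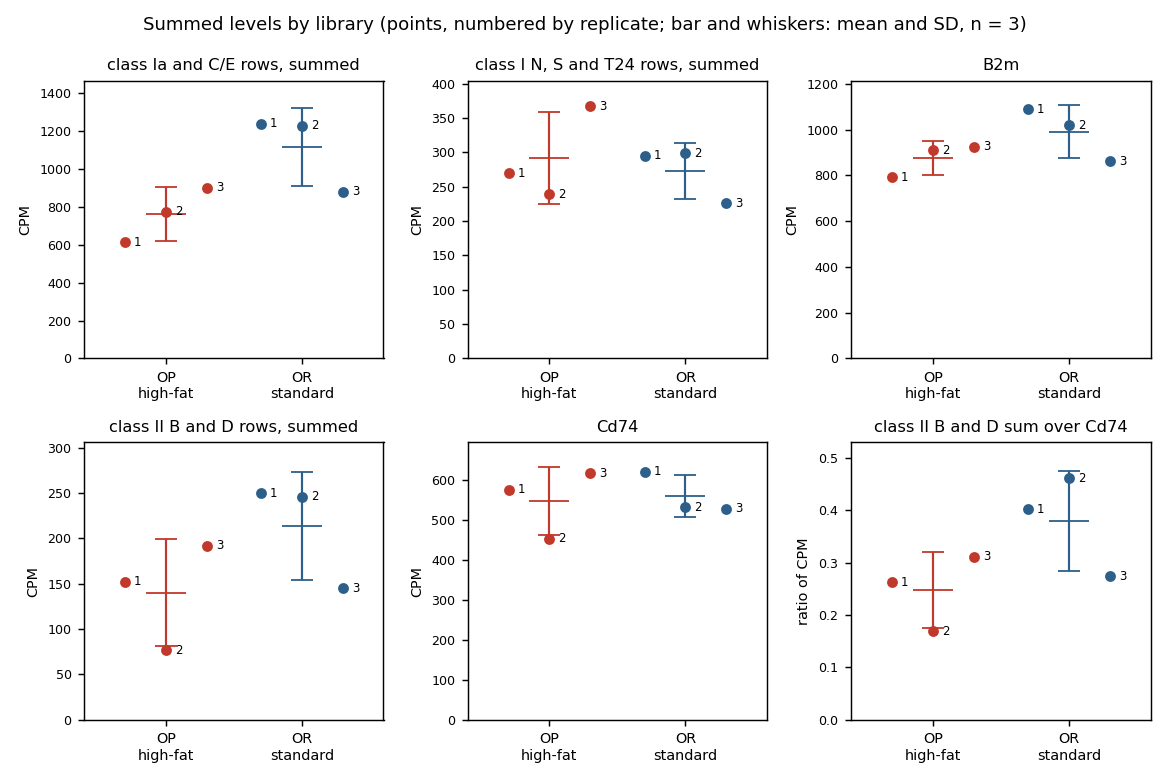
Summed class I and class II levels, B2m and Cd74 in CPM, and the ratio of the summed class II B and D rows to Cd74 (y axes), in OP high-fat and OR standard hearts (x axes), with points for the libraries and the mean and SD of 3. Class Ia and C/E rows sum to 613 to 901 CPM in OP rats, against 881 to 1240 CPM in OR rats, and Cd74 lies between 453 and 621 CPM in all 6 libraries.

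The class II chains that form the surface molecules, RT1-Ba and RT1-Bb for the B pair and RT1-Da and RT1-Db1 for the D pair, had negative fold changes of -0.64, -0.47, -0.62 and -0.71. None was called, and RT1-Db1 alone had an unadjusted p under 0.05 (0.0379, adjusted p = 0.196 from limma). RT1-Db1 had 36.6, 20.3 and 44.9 CPM in OP rats, against 62.0, 67.9 and 39.0 CPM in OR rats. RT1-Ba had 15.9 to 45 CPM in OP rats, against 32.9 to 58.7 CPM in OR rats, RT1-Bb 22.2 to 50 CPM in OP rats, against 34.2 to 67.2 CPM in OR rats, and RT1-Da 18.1 to 51.0 CPM in OP rats, against 38.1 to 64.3 CPM in OR rats. OP replicate 2 was the lowest OP library and OR replicate 3 the lowest OR library in all 4 genes. The groups overlapped in each. Without OP replicate 2 the fold changes were -0.24, -0.16, -0.21 and -0.41. The lowest values with any 1 library left out were -0.94, -0.76, -0.91 and -0.95. RT1-Db2 had at most 10 reads in a library and was not tested.

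Cd74 had 576, 453 and 617 CPM in OP rats, against 621, 533 and 529 CPM in OR rats, with overlapping groups and a log2 fold change of 0.01 (95% interval -0.25 to 0.27). The ratio of the summed B and D rows to Cd74 was 0.263, 0.169 and 0.311 in OP rats, against 0.402, 0.461 and 0.274 in OR rats, and these groups overlapped as well. RT1-DOb, a chain of the DO molecule that restrains peptide loading by DM, had 1.15, 1.4 and 1.05 CPM in OP rats, against 1.6, 1.65 and 1.6 CPM in OR rats. The groups did not overlap, although the fold change of -0.34 was not called (adjusted p = 0.416 from limma) and the values are 13 to 15 reads in OP rats and 17 to 19 reads in OR rats. RT1-DOa, its partner chain, had 5 to 11 reads in OP rats and 9 to 14 reads in OR rats. The rows named RT1-DMa, RT1-DMb and RT1-Ha held at most 4 reads in a library, and with RT1-N2 (at most 7 reads) they were not tested.

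The 2 regulators were lower on average in OP rats. Nlrc5 had 8.35, 9.35 and 12.8 CPM in OP rats, against 25.4, 23.2 and 13.6 CPM in OR rats. The groups did not overlap, with OP replicate 3 just under OR replicate 3. The log2 fold change was -0.94 (SE 0.24, 95% interval -1.50 to -0.38), which missed the threshold (adjusted p = 0.0787 from limma, 0.0588 to 0.243 with each library left out). Ciita had 3.05, 1.55 and 3.75 CPM in OP rats, against 5.45, 6.5 and 3.35 CPM in OR rats. These groups overlapped through OP replicate 3 and OR replicate 3, and the log2 fold change was -0.81 (95% interval -1.58 to -0.04, adjusted p = 0.203 from limma). Without OP replicate 2 it was -0.49, and without OR replicate 3 it was -1.07.

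Nlrc5 and Ciita act through a complex of RFX factors and NF-Y on the X and Y boxes of MHC promoters. The promoter windows of 33 of the 39 members were matched in RefSeq (GRCr8) and searched on both strands for GATTGG, the Y box bound by NF-Y, and for ACNGATG, letters of the X box chosen with the member promoters in view. GATTGG was found in 21 of the 33 windows and in 14.8% of the 33469 windows of all genes, and ACNGATG in 11 and in 10.2%. No match of one overlapped a match of the other in the members. ACNGATG followed on the same strand by GATTGG, with 20 to 35 bases from start to start, stood in 6 members (RT1-Da, RT1-Db1, RT1-Db2, RT1-Bb, RT1-DOb and RT1-DMa) and in 20 windows of all genes, or 0.0598%. All 6 are class II genes, of 9 class II windows matched, and the distance was 26 to 29 bases. RT1-CE4 and RT1-CE5 hold both motifs on opposite strands, so the same-strand rule could not count them. Because the letters of ACNGATG were chosen with the member promoters in view, the count in members is a description and no independent test.

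The class II stretches of the B and D chains are shown because these 4 genes had like fold changes. They are aligned on the Y box, with both motifs in capitals, at chr20:4515320-4515389 on the plus strand, chr20:4560219-4560288 on the minus strand, chr20:4576968-4577037 on the plus strand and chr20:4604156-4604225 on the minus strand.
RT1-Da: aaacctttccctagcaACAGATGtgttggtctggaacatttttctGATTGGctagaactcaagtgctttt
RT1-Db1: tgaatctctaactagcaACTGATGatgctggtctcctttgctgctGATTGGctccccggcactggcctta
RT1-Ba: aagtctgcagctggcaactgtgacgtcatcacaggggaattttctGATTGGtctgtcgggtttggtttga
RT1-Bb: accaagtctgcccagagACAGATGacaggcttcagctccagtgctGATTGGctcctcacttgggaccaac
RT1-Ba held the Y box letters and no match to ACNGATG, which says only that these letters are not in this window.

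Among the class Ia and C/E rows, 7 windows were matched and 4 held the Y box letters, all as the reverse complement CCAATC. RT1-A1, RT1-A2, RT1-CE4 and RT1-CE5, which hold the letters, had fold changes of -0.35, -0.52, -0.60 and -0.58. RT1-CE1, RT1-CE3 and RT1-CE10, whose windows lack them, had -0.76, -0.59 and -0.46. The stretches shown are the 4 that hold the letters. They stand at chr20:4907137-4907226 and chr20:4872750-4872839 on the plus strand and at chr20:3509207-3509296 and chr20:3484114-3484203 on the minus strand, with the Y box and ACNGATG in capitals.
RT1-A1: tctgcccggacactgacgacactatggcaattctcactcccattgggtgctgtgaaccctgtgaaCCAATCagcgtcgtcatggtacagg
RT1-A2: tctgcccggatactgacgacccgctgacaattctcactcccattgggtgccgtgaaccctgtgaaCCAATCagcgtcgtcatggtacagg
RT1-CE4: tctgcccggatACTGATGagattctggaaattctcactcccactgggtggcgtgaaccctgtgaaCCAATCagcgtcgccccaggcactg
RT1-CE5: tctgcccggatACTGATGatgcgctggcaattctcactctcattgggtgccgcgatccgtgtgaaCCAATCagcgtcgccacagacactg
The windows of RT1-A1 and RT1-A2 were identical at 92.4% of 251 aligned bases and those of RT1-CE4 and RT1-CE5 at 85.7% of 273. RT1-M6-1 and RT1-M6-2 held no match to GATTGG or ACNGATG. The remaining motif, GAAANNGAA, stands for the pair of GAAA sites bound by interferon regulatory factors. It was found in 7 members (B2m, Tap1, Tap2, Tapbp, RT1-N3, RT1-S2 and RT1-S3), in 0 of the 7 class Ia and C/E windows and in 9.71% of all windows. The stretch of Tap1 with its reverse complement in capitals, on the minus strand at chr20:4668624-4668693, serves as the example.
Tap1: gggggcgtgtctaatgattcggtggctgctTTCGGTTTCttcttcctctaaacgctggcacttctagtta
RT1-N3, RT1-S2 and RT1-S3, which hold this motif, had fold changes of -0.08, -0.31 and 0.24.

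The other genes of the pathway came from 6 lists with 69 genes found in the table. Of these 60 were tested, and 1 was called lower and 0 higher in OP rats, beside 1.87% and 1.53% of all tested genes. At an unadjusted p under 0.05 from limma, 8 were lower and 4 higher, beside 11.6% and 10.8% of all tested genes. Those shares also stand beside the counts of the single lists below. Ulbp1, described further on, was the called gene. Of 10 tested genes of the interferon gamma axis 0 were called by limma and 0 stood at an unadjusted p under 0.05. Interferon gamma itself (Ifng) had at most 0.2 CPM and was not tested. Ifngr1, a chain of its receptor, had 0.27, and Irf8, Cxcl10, Irf1, Cxcl9 and Gbp2, which interferon gamma induces, had -0.26, -0.63, -0.22, -0.09 and -0.09 without passing the test. The median of the list was -0.09.

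Among genes of peptide supply, the interferon-induced proteasome subunits Psmb8 and Psmb9, which lie beside Tap1 and Tap2 in the MHC, had negative fold changes. Psmb8 had 7.15, 7.7 and 12.7 CPM in OP rats, against 20.2, 19.6 and 12.4 CPM in OR rats (log2 change -0.87, adjusted p = 0.0985 from limma). Psmb9 had 23.7, 22.2 and 31.6 CPM in OP rats, against 50.5, 47.1 and 28.8 CPM in OR rats (-0.62, adjusted p = 0.140 from limma). In both, as in Tap1, OR replicate 3 fell among the OP libraries and OR replicates 1 and 2 lay above them. Psmb10, the remaining interferon-induced subunit, had -0.30. Of 13 tested genes of this list, 0 were called by limma, 2 were lower and 0 higher at an unadjusted p under 0.05, and the median was -0.14.

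**Figure D4:**
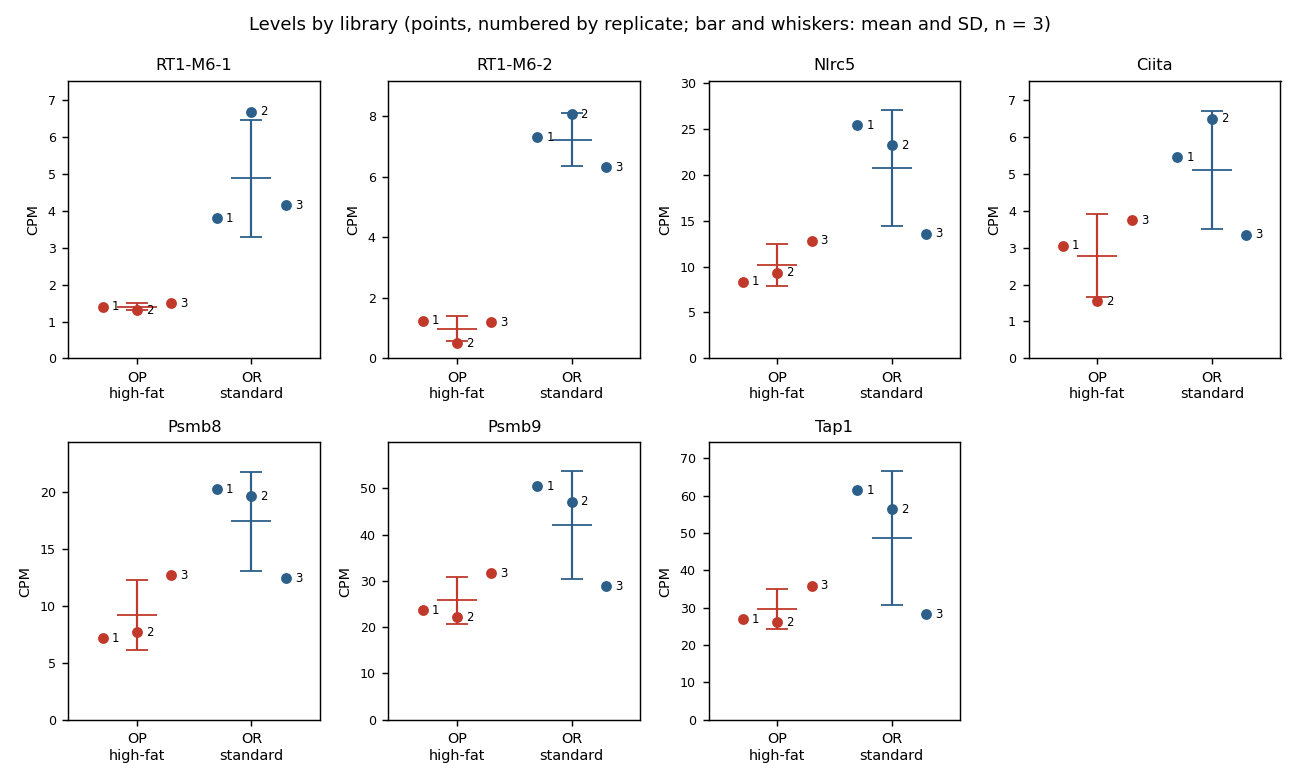
CPM (y axes) of the called pair RT1-M6-1 and RT1-M6-2, of the regulators Nlrc5 and Ciita, and of Psmb8, Psmb9 and Tap1, in OP high-fat and OR standard hearts (x axes), with points for the libraries numbered by replicate and the mean and SD of 3. The M6 pair shows the widest gap, and in Nlrc5, Ciita, Psmb8, Psmb9 and Tap1 OR replicate 3 is the lowest OR library.

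Of 9 tested genes that process antigen for class II, 0 were called in either direction by limma, 2 had an unadjusted p under 0.05 with higher values in OP rats and 0 with lower values, and the median was 0.11. Ctsd, the protease cathepsin D, had 726, 682 and 706 CPM in OP rats, against 646, 605 and 622 CPM in OR rats (log2 change 0.23, adjusted p = 0.113 from limma). Cd9, a membrane protein of the tetraspanin family, had 0.33 (adjusted p = 0.0851), and Ctss, cathepsin S, which trims the invariant chain, had 0.41 (adjusted p = 0.278). Of the genes of the X and Y box complex, 0 of 10 were called by limma and 0 stood at an unadjusted p under 0.05 in either direction. The smallest p values among them belonged to Crebbp (0.29), Nfya (-0.23) and Rfxank (0.18), where the values are log2 fold changes.

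Of 12 tested class I-like molecules and receptors, 1 was called. Ulbp1, a ligand of the activating receptor NKG2D, had 6.8, 8.25 and 5.5 CPM in OP rats, against 16.0, 13.6 and 14.9 CPM in OR rats, with no overlap (log2 fold change -1.06, adjusted p = 0.0229 from limma). Leaving out OP replicate 1 (0.066) or any 1 OR library (0.0827 to 0.12) ended this call. Klrd1, a partner chain of natural killer receptors that read class I, had -1.54 (adjusted p = 0.0678 from limma, 0.0431 without OP replicate 1), and Ncr1, an activating natural killer receptor, had -1.21 (adjusted p = 0.0706). Of 7 tested costimulation genes 0 were called by limma, while Cd48 (higher, 0.28) and Cd28 (lower, -0.94) had an unadjusted p under 0.05, and Cd40 had 0.50.

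Other genes of the MHC region were taken as the 366 genes of the GRCr8 annotation that lie within the RT1 span and are not members. Of these 109 were found by name and 76 were tested. By limma 2 were called higher and 1 lower, beside 1.53% and 1.87% of all tested genes, and the median fold change was 0.05. Ddah2, which degrades inhibitors of nitric oxide synthesis, had 67.0, 53.0 and 53.5 CPM in OP rats, against 25.1, 21.5 and 22 CPM in OR rats, with no overlap (log2 fold change 1.38, adjusted p = 0.00167 from limma). Abhd16a, a lipid hydrolase, was higher (0.59, adjusted p = 0.0223), and Ddx39b, an RNA helicase, was lower (-0.44, adjusted p = 0.0435). Ddah2 was called with each library left out, Abhd16a lost its call without OP replicate 1 or any 1 OR library (adjusted p = 0.0626 to 0.12), and Ddx39b lost it without any 1 library other than OP replicate 2 (0.0986 to 0.147), with no filter (0.0536) and with the replicate block (0.0709).

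Cardiomyocyte markers marked the tissue, with summed levels of 35300 to 37400 CPM in OP rats, against 36200 to 39300 CPM in OR rats, with 0 of 7 called by limma and 0 at an unadjusted p under 0.05. Summed macrophage markers were 262 to 376 CPM in OP rats, against 218 to 311 CPM in OR rats. Endothelial markers summed to 1180 to 1390 CPM in OP rats, against 914 to 1140 CPM in OR rats. By limma 0 of 11 macrophage and 0 of 6 endothelial markers were called. At an unadjusted p under 0.05 from limma, 2 macrophage and 4 endothelial markers were higher, beside 10.8% of all tested genes. Cdh5, Kdr and Tek were called higher without OP replicate 2. T and natural killer markers summed to 35.9 to 57.9 CPM in OP rats, against 52.9 to 61.1 CPM in OR rats. Of the 11 tested, 5 were lower at an unadjusted p under 0.05 from limma, beside 11.6% of all tested genes. These were Tbx21, Klrd1, Ncr1, Prf1 and Cd8a, and Tbx21 alone was called (-1.35, adjusted p = 0.0461 from limma). Nkg7 had -0.53, whereas Cd3e, Cd3g, Cd2, Cd4 and Lck had 0.07, 0.04, 0.17, 0.10 and -0.04. Klrd1, Ncr1, Cd8a and Cd4 are also in the list of class I-like molecules and receptors. The defining B cell markers Ms4a1, Cd79a, Cd79b and Pax5 stood at 0 to 0.55 CPM in OP rats, against 0 to 0.45 CPM in OR rats. Fcer2 and Cd22 were the tested B cell genes, and Fcer2 was called higher (4.05), also with each library left out. Without OP replicate 1 or any 1 OR library Tbx21 was not called (adjusted p = 0.0883 to 0.19 from limma), nor with no filter (0.0614) or voom (0.0556).

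Of the dendritic cell list, 6 of 10 genes were tested. Wdfy4 was called higher (1.88, adjusted p = 0.038 from limma), Itgax had -0.65 (adjusted p = 0.085), and Flt3, Clec9a and Zbtb46 had -0.03, 0.07 and 0.07. The call of Wdfy4 held only without OP replicate 2 among the fits with 1 library left out (adjusted p = 0.0507 to 0.162 in the others), and it was lost with robust variances (0.0641) and voom (0.0535). The part of these cell types in the class I and class II values was not tested.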

How the data were processed

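RNA of 3 OP and 3 OR hearts was sequenced, 1 library per rat. The authors trimmed reads with Trimmomatic, mapped them with STAR to Rnor 6.0 and obtained reads per gene with HTSeq. The deposited score of a gene is its number of reads after the authors rescaled every library to 20000000 and rounded up, so it is no raw count. The sources used here do not give the strand setting.

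Reads were recovered as the total for which 99.75% to 99.881% of values equalled, with no tolerance, whole reads scaled and rounded up. Since the values are scaled, limma 3.58.1 in R 4.3.3 with a mean-variance trend replaced a count model. TMM scaling (trims of 30% and 5%) and a pseudocount of 4 preceded the log2 fit by group, for genes that reached 1 CPM in 3 or more libraries. The depth is that of the recovered reads, and intervals are of the fitted difference. The fit was tested on simulated data.

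Members and lists were chosen with earlier results of these data known, and a few single genes are left out of the lists and not reported here. Values of all libraries are given for called members, for tested members whose groups do not overlap and for B2m, Cd74, Tap1, Tap2, Tapbp, Ciita and Nlrc5. From each pathway list, called genes and up to 3 with the smallest p are named, and from the marker and region lists the called genes. Other named genes were chosen after their values were seen. All 39 member symbols matched the GRCr8 tables of RefSeq, which differ in build from the files, so coordinates are given for printed promoters alone. Motifs were searched with Python 3.11.15 and windows aligned with Biopython 1.88. Alternatives were median-of-ratios scaling, no rescaling, pseudocounts of 1 and 20, omitting the filter, requiring 10 reads in each library, robust variances, voom on recovered reads, a replicate block and each library left out. With 3 rats against 3 the smallest exact permutation p is 0.1, so no permutation test was used.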

Additional observations from a re-analysis of the deposited data

How the results depend on the processing

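No member was called higher under any alternative run, and no called member changed sign. RT1-M6-2 was called under every alternative in which it was tested, and was not tested with at least 10 reads in every library, where OP replicate 2 had 5 and the members called fell to 1. RT1-M6-1 was not called without OP replicate 1 or any 1 OR library, so the members called ranged from 1 to 2. With libraries left out the counts ranged from 56 to 775 for all genes (457 with all libraries), from 0 to 1 for the pathway lists (1) and from 1 to 6 for the other MHC region genes (3). The lowest of 56 came without OR replicate 1 and the highest of 775 without OP replicate 2, and 81 and 72 genes were called without OR replicates 2 and 3, 176 and 256 without OP replicates 1 and 3. Without rescaling 5 region genes were called, and 311 of 465 genes called were lower, against 251 of 457 in the reported fit, with the median of all genes at -0.05. The cause of these shifts was not tested. Sign changes were found in 7 uncalled members, of which RT1-S2 (-0.31) had 0.05 without OP replicate 1 and the others lay between -0.08 and 0.12 with all libraries.

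Replicate numbers were not used to pair the rats in the reported fit. Deviations of libraries with the same number correlated at 0.0594, 0.0749 and 0.127, and those with different numbers at -0.17 to 0.079. OP replicate 1 correlated best with OR replicate 3 (0.0788). Whether the numbers pair the rats is not settled by these values. With the replicate block 2 members, 271 of all genes, 1 pathway gene and 2 region genes were called. At an unadjusted p under 0.05 from limma, 9 members were lower with the block, beside 11.6% of all genes, and 12 in the reported fit. Depth limits the rows under 20 reads, among them RT1-M6-1 and RT1-M6-2 in OP rats, RT1-DOb and Tap2. Line, diet, haplotype and read mapping cannot be told apart with these libraries.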
